A study of Sus scrofa with 4 samples.

Results

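The interleukin-6 axis was followed on 4 porcine oligonucleotide arrays through 10 genes, taken by function: the ligands IL6 and LIF, the receptor chains IL6R, IL6ST and OSMR, the transcription factor STAT3, and the feedback inhibitors SOCS1, SOCS2, SOCS3 and SOCS5. Every probe whose gene name on the array equalled 1 of these symbols was used. This gave 19 probes of 8 genes, out of 43603 probes with 34853 gene names, and no probe carried the name OSMR or SOCS1, which were not analysed here. Of the 19 probes 14 were well above background on all 4 arrays and the other 5 on some of them. The cells were the PIP line, porcine intramuscular preadipocytes grown from the longissimus thoracis muscle of a female Duroc pig and used between passages 26 and 35. One array held PIP cells in growth medium, neither differentiated nor stimulated. For the other 3, PIP cells kept for 4 days past confluence had been differentiated to mature adipocytes (pMA) over 4 days in medium with insulin (50 ng/ml), dexamethasone (0.25 μM), octanoate (2 mM) and oleate (200 μM). These pMA were left unstimulated or were stimulated for 12 h with serotonin (100 μM, which the labels give per ml) or with TNF-α (2.5 µg/ml). The methods state pooling of RNA within a group where they name a mouse array, but not where they describe the porcine array. Whether these arrays held pools is open, and each condition is 1 array of 1 cell line. Differences between conditions therefore rest on single arrays, and no p-values were calculated. A fold of 2, the fold cutoff of the study's methods, separates called from uncalled differences. The methods also required a t-test p-value under a limit, which single arrays cannot give.

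IL-6 binds the receptor chain encoded by IL6R and then the shared signalling chain gp130, encoded by IL6ST, which also serves LIF and oncostatin M. gp130 carries JAK kinases that phosphorylate STAT3, and STAT3 in the nucleus switches on acute-phase and growth genes together with SOCS3. SOCS3 binds gp130 and the JAKs and shuts the signal off, while SOCS2 is best known for restraining growth hormone signalling and SOCS5 for acting on IL-4 and EGF receptors. In fat, IL-6 is made by adipocytes, their precursors and resident immune cells, and TNF-α is a well-known inducer of it.

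After stimulation IL6 was highest with TNF-α, and SOCS3 and SOCS5 were highest with serotonin. TNF-α was accompanied by a 3.09-fold higher level of IL6, with SOCS5 at 1.03-fold (a value that changed sign under 2 other settings). With TNF-α SOCS3 was 1.49-fold higher on its leading probe and 1.22-fold lower on its other probe, and SOCS2 was 1.47-fold higher on its leading probe and at least 2.07-fold higher on its second. Serotonin was accompanied by a 3.30-fold higher level of SOCS3 and a 2.46-fold higher level of SOCS5, with IL6 1.36-fold lower. The receptor genes and STAT3 stayed within 2-fold in all comparisons on their leading probe, the probe of a gene with the highest mean level over the arrays. In the change from PIP cells to pMA the called member was SOCS2, 3.43-fold lower in pMA. Levels are given as log2 of the spot intensity relative to the 75th percentile of the same array, so that 0 is the 75th percentile itself, and they can be compared between arrays for 1 probe but not between probes. The error after ± is the scanner software's estimate for a spot on the log2 scale. It covers the spot alone, not the culture, the RNA or the labelling. Levels of 1 probe on 2 arrays were called separate where they differed by more than 2 times the combined spot error, referred to below as the error limit.

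**Figure D1:**
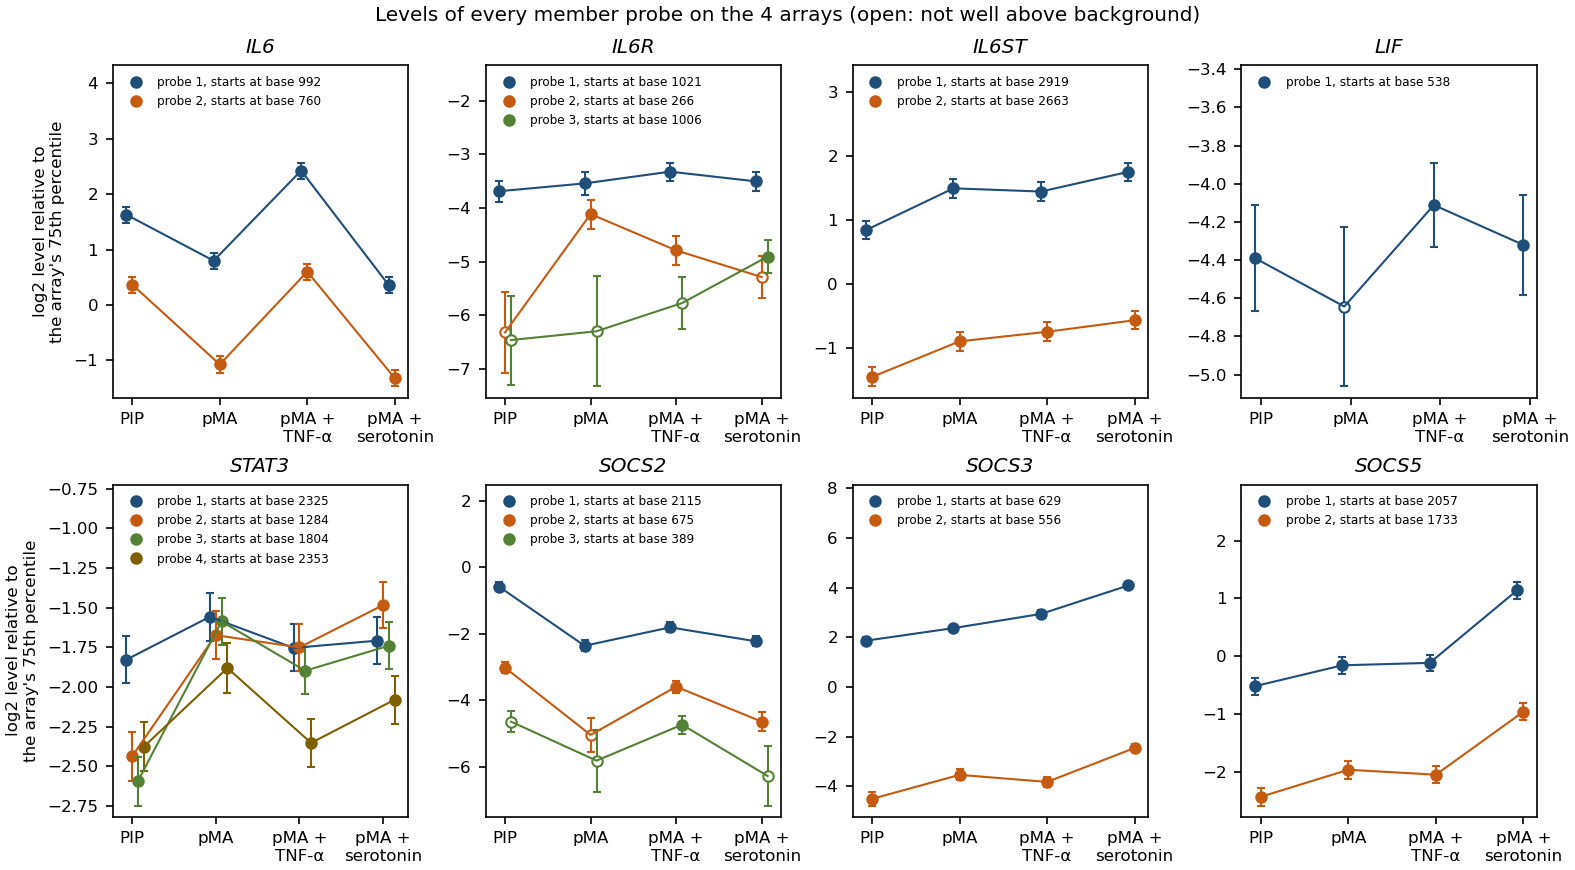
Level of each of the 19 probes on the 4 arrays, 1 panel per gene with its own vertical scale, in log2 units relative to the array's 75th percentile. Points are single spots, bars are the scanner's error of a spot, open points were not well above background, lines only join the points of a probe, and the starting base counts along each probe's own target transcript. IL6 was highest with TNF-α on both probes (2.43 and 0.60), and SOCS3 and SOCS5 were highest with serotonin on both of theirs.

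IL6 itself was represented by 2 probes, starting at bases 992 and 760 of its transcript, and both were well above background on all 4 arrays. On the leading probe the level was 1.63 ± 0.14 in PIP cells, 0.80 ± 0.14 in unstimulated pMA, 2.43 ± 0.14 with TNF-α and 0.36 ± 0.14 with serotonin. The other probe read 0.37 ± 0.14, -1.07 ± 0.15, 0.60 ± 0.14 and -1.32 ± 0.15 in the same order. Both probes therefore placed the conditions in 1 order: TNF-α, PIP, pMA, serotonin. The steps were not equally secure. On the leading probe all 3 exceeded the error limit, but on the other probe TNF-α and PIP (0.23 apart, limit 0.41) and pMA and serotonin (0.25 apart, limit 0.42) could not be separated. The log2 ratio of TNF-α-stimulated to unstimulated pMA was 1.63 and 1.68 on the 2 probes. For serotonin it was -0.44 and -0.25, under 2-fold on both. Set directly against each other, without the unstimulated array, serotonin gave 4.19-fold less IL6 signal than TNF-α on the leading probe and 3.79-fold less on the other. From PIP cells to pMA the probes gave log2 ratios of -0.83 and -1.44, so that only the second was past 2-fold.

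LIF, the other ligand, is a relative of IL-6 that signals through LIFR and gp130. Its single probe was close to the detection limit: -4.39 ± 0.28 in PIP cells, -4.11 ± 0.22 with TNF-α and -4.32 ± 0.26 with serotonin, and below the background limit in unstimulated pMA (-4.64 ± 0.42). No step between neighbouring conditions exceeded the error limit. Against unstimulated pMA the lower bound was 1.44-fold higher with TNF-α and 1.24-fold higher with serotonin. For these bounds the dim side was replaced by the faintest probe that passed the background limit on the pMA array, if that was brighter. Their log2 values, 0.52 and 0.32, had combined spot errors of 0.47 and 0.49, so neither difference exceeded the error limit.

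IL6R encodes the chain that binds IL-6 at the cell surface. Its leading probe was faint and flat, at -3.69 ± 0.19 in PIP cells, -3.54 ± 0.22 in pMA, -3.32 ± 0.17 with TNF-α and -3.50 ± 0.18 with serotonin. No step between neighbours in the order of these levels exceeded the error limit. Probe 2, from base 266, was well above background in unstimulated pMA (-4.11) and with TNF-α (-4.79) but not in PIP cells or with serotonin, which puts pMA at least 2.02-fold above PIP cells and serotonin at least 2.02-fold below pMA. On the leading probe the log2 ratios of the same comparisons were 0.15 and 0.04. Probe 3, from base 1006, was well above background with serotonin alone (-4.90). Probes 1 and 3 target almost the same place. Their oligos are shown because they share 45 of 60 bases, in capitals, and yet probe 1 passed the background limit on 4 arrays and probe 3 on 1.
IL6R probe 3: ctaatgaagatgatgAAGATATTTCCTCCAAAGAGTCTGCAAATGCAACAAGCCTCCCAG
IL6R probe 1: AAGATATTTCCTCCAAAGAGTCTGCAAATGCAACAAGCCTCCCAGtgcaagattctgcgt
Before scaling, the intensities of the leading probe ran from 40.0 to 55.9 scanner units.

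IL6ST, the gp130 gene, was bright on both probes. The leading probe stood at 0.84 ± 0.14 in PIP cells, 1.49 ± 0.14 in pMA, 1.44 ± 0.14 with TNF-α and 1.75 ± 0.14 with serotonin. The second stood at -1.46, -0.90, -0.75 and -0.57, each ± 0.15. PIP cells were lowest on both, by 0.65 and 0.56 against pMA, which exceeded the error limit and stayed under 2-fold. Among the 3 pMA arrays no step between neighbours exceeded that limit.

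STAT3 was read by 4 probes, all well above background on every array. The leading one gave -1.83 in PIP cells, -1.56 in pMA, -1.75 with TNF-α and -1.71 with serotonin, each ± 0.15. In pMA against PIP cells the 4 probes gave log2 ratios of 0.27, 0.76, 1.01 and 0.50, positive on all 4 and past 2-fold on the third, which starts at base 1804. The value of the leading probe turned to -0.08 when arrays were scaled to their medians. With TNF-α the ratios to unstimulated pMA ran from -0.47 to -0.08 and with serotonin from -0.20 to 0.19, and none of the 8 was past 2-fold. Probes 1 and 4 overlap on the transcript and are printed because they should read the same molecules, with the bases they share in capitals.
STAT3 probe 1: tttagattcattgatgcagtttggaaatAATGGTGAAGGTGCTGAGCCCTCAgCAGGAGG
STAT3 probe 4: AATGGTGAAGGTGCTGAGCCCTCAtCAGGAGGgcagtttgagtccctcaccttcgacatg
The overlap is 32 bases with 31 identical, and the difference is G53T, counted from the 5′ end of probe 1 with the base of probe 1 named before that of probe 4. In pMA against PIP cells these probes gave 0.27 and 0.50, and with TNF-α against pMA -0.20 and -0.47, so probes of the same stretch differed by up to 0.28.

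SOCS3 had the largest difference of the members with serotonin. Its leading probe is annotated in the files to a short transcript variant and read 1.86 in PIP cells, 2.37 in pMA, 2.94 with TNF-α and 4.09 with serotonin, each ± 0.14, and all 3 steps exceeded the error limit. In unscaled scanner units the spot rose from 2476 in unstimulated pMA to 9652 with serotonin. The other probe lay near the floor, at -4.51 ± 0.27, -3.54 ± 0.22, -3.83 ± 0.19 and -2.46 ± 0.15 in the same order, and its oligo is given because it is the second reading of SOCS3 from the same RNA.
SOCS3 probe 2: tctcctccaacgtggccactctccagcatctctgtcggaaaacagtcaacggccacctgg
This oligo is GC-rich, with 35 of its 60 bases G or C against 21 in the leading probe. Serotonin against pMA gave log2 ratios of 1.72 ± 0.20 and 1.08 ± 0.27 on the 2 probes, past 2-fold on both. Serotonin against TNF-α gave 1.15 and 1.37, again past 2-fold on both. For TNF-α against pMA the probes disagreed in direction, at 0.57 and -0.28, and neither was past 2-fold. For pMA against PIP cells they gave 0.51 and 0.97.

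SOCS5 behaved alike on its 2 probes. The leading probe read -0.52 ± 0.15 in PIP cells, -0.15 ± 0.15 in pMA, -0.11 ± 0.14 with TNF-α and 1.14 ± 0.14 with serotonin. The second read -2.43, -1.96, -2.05 and -0.96, each ± 0.15. Serotonin stood apart from the other 3 arrays on both, and no step between neighbours in the order of those 3 exceeded the error limit. From PIP cells to pMA the log2 ratios were 0.36 ± 0.21 and 0.47 ± 0.22, of which the second exceeded it. The serotonin ratio to pMA was 2.46-fold on the leading probe and 2.01-fold on the second, and the ratio to TNF-α was 2.39-fold and 2.13-fold. The second oligo is shown for its place: reading frame 1 runs through it without interruption to its last letters, TAA, a stop codon, here in capitals.
SOCS5 probe 2: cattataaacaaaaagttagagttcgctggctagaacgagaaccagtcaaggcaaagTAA

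SOCS2 ran the other way. The leading probe fell from -0.58 ± 0.15 in PIP cells to -2.36 ± 0.17 in pMA, and read -1.80 ± 0.15 with TNF-α and -2.22 ± 0.15 with serotonin. PIP cells were above the other arrays by more than the error limit. Among the 3 pMA arrays no step between neighbours exceeded it, TNF-α and serotonin being 0.42 apart with a limit of 0.43, whereas TNF-α and unstimulated pMA, the ends of that order, lay 0.55 apart and did exceed it. Probe 2 read -3.02 ± 0.17 in PIP cells, -3.59 ± 0.18 with TNF-α and -4.64 ± 0.30 with serotonin and did not pass the background limit in unstimulated pMA. On it SOCS2 was at least 3.07-fold lower in pMA than in PIP cells, at least 2.07-fold higher with TNF-α than in unstimulated pMA, and 2.07-fold lower with serotonin than with TNF-α. On the leading probe the last 2 differences were 1.47-fold and 1.34-fold, so their size depended on the probe and their direction did not. The third probe was well above background with TNF-α only (-4.73 ± 0.27).

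**Figure D2:**
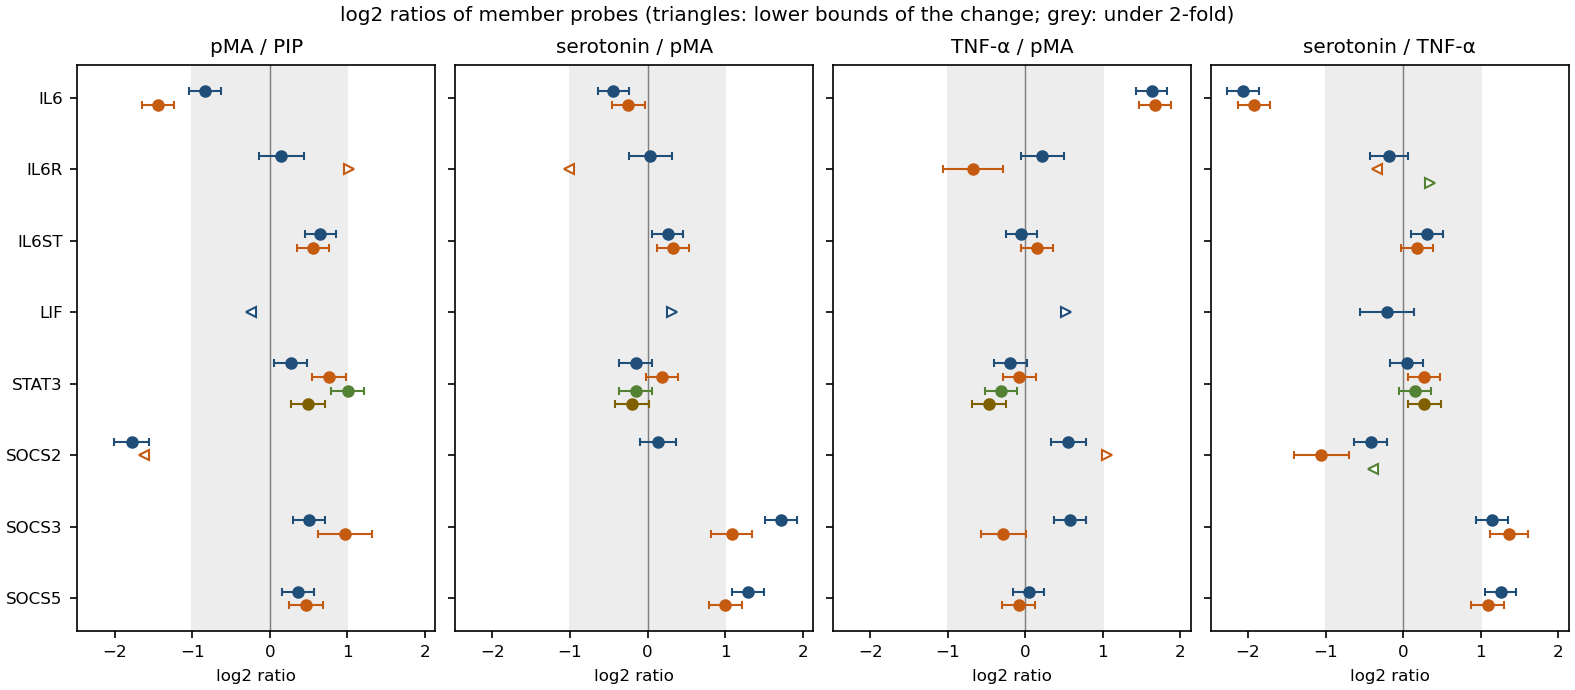
log2 ratios of the member probes in 4 comparisons, with 0 as no difference and the area under 2-fold in grey. Colours give the probe number (blue 1, orange 2, green 3, brown 4), bars the combined scanner error of the spots compared, and open triangles lower bounds of the change where 1 side was not well above background. IL6 lies outside the grey area to the right for TNF-α and to the left for serotonin against TNF-α, SOCS3 and SOCS5 lie to its right in both serotonin panels.

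The counts of called members can be read against all gene names. From PIP cells to pMA 1 of the 8 members was called, SOCS2, lower, while 13.5% of the 18633 gene names with a ratio were past 2-fold, 9.94% higher and 3.56% lower. With serotonin 2 of 8 were called, both higher, against 6.82% of 19095 gene names in either direction, 2.08% higher and 4.73% lower. With TNF-α 1 of 8 was called, higher, against 3.56% of 19782 in either direction, 2.21% higher and 1.34% lower. Between serotonin and TNF-α 3 of 8 were called, IL6 lower and SOCS3 and SOCS5 higher with serotonin, against 6.9% of 21862 in either direction, 5.07% lower and 1.83% higher. The median log2 ratio of the 8 members was 0.21, 0.20, 0.37 and -0.07 in these comparisons, beside 0.12, 0.01, 0.01 and -0.04 over all gene names. A ratio at least as high as that of IL6 with TNF-α was found for 0.703% of gene names, and at least as high as that of SOCS3 and SOCS5 with serotonin for 0.435% and 0.995%. The unstimulated pMA array enters both stimulations and the differentiation, so its own error is in all 3, and only serotonin against TNF-α is free of it.

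**Figure D3:**
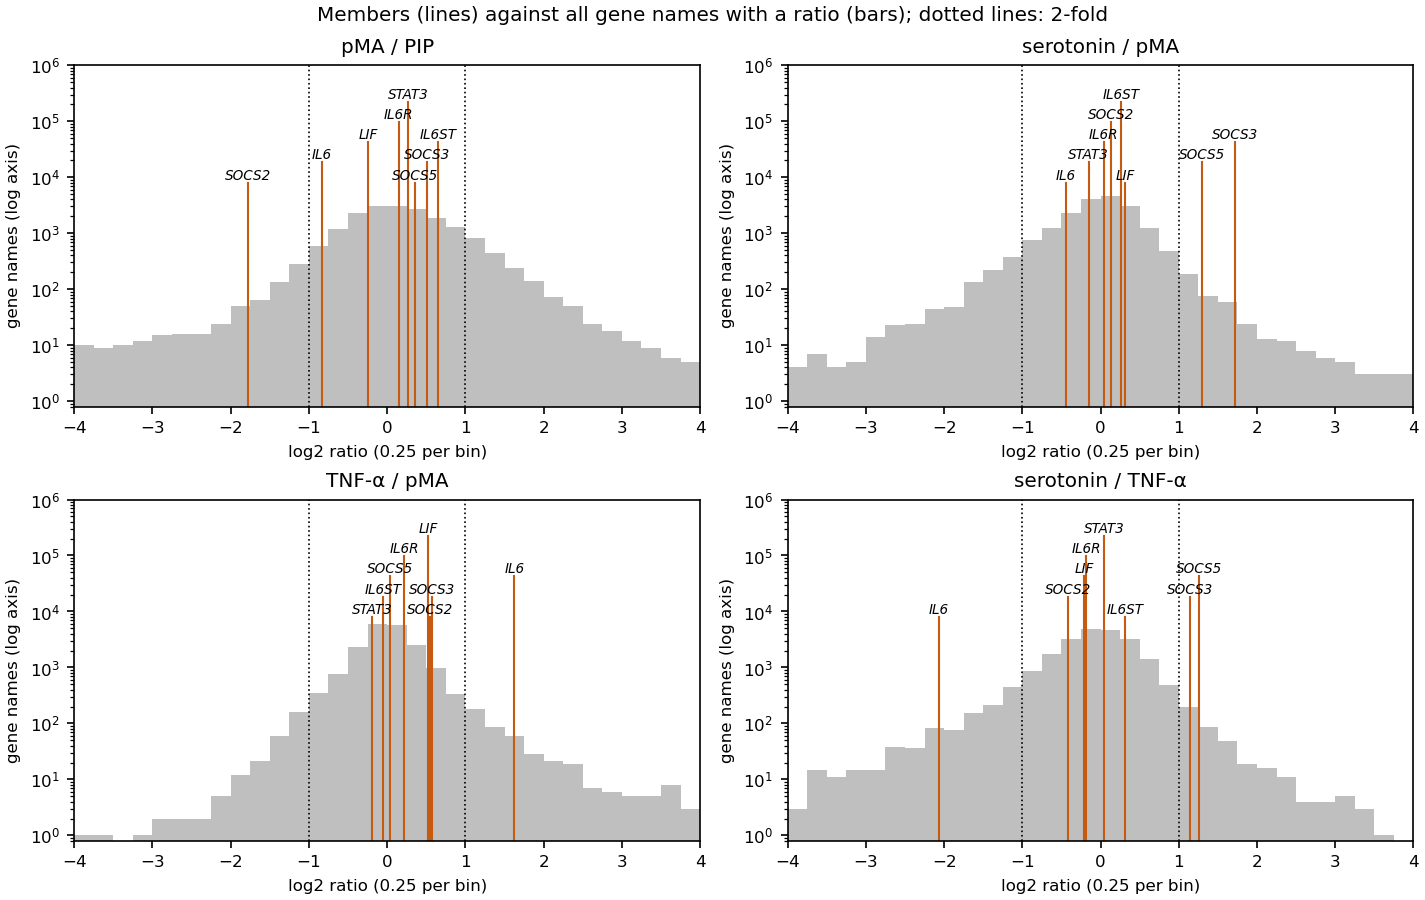
Number of gene names per 0.25 of log2 ratio (grey bars, log axis) and the log2 ratio of each member's leading probe (lines with names, whose heights only keep the names apart) in 4 comparisons; dotted lines mark 2-fold. Most members lie in the bulk of the gene names, and SOCS2, IL6, SOCS3 and SOCS5 pass the dotted lines in the comparisons named in the text.

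The rest of the pathway was described from lists chosen by function. Of 73 listed gene names, with AUF1 and HNRNPD for the same gene, 46 were found on the array. Of these 41 to 44 had a ratio, depending on the comparison. In pMA against PIP cells 4 were at least 2-fold higher and 1 lower, with serotonin 2 higher and 1 lower, with TNF-α 2 higher and none lower, and between serotonin and TNF-α none higher and 4 lower with serotonin, to be read beside the shares of all gene names given above. The first of these splits depended on the scaling, with 3 higher and 4 lower under median scaling and 12 higher and 1 lower under spike-in scaling. The medians of the lists together were 0.33, 0.03, 0.11 and -0.12 in the same order.

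Among other ligands of the family OSM, oncostatin M, rose 3.91-fold from -4.73 in PIP cells to -2.76 in pMA, on 1 faint probe, and differed by under 2-fold after either stimulation. CNTF stayed between -0.43 and 0.47 in the log2 ratios of all comparisons. Of the receptors LIFR, the LIF receptor chain, had a ratio of 0.93 from PIP cells to pMA on its leading probe and -0.41 on its other probe. None of the 8 kinases and adaptors, JAK1, JAK2, JAK3 and TYK2 among them, passed 2-fold on its leading probe in any comparison. The other JAK3 probe gave 1.40 in pMA against PIP cells. The log2 ratios of the leading probes of the 8 ran from -0.77 to 0.61 in pMA against PIP cells, from -0.42 to 0.29 with serotonin and from 0.01 to 0.45 with TNF-α. The shedding proteases ADAM10 and ADAM17, which release soluble IL-6 receptor, stayed between -0.34 and 0.39 on their leading probes.

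STAT2, STAT5A, STAT5B and STAT6, relatives of STAT3, stayed under 2-fold in all comparisons on their leading probes. These had log2 ratios from -0.42 to 0.34 in pMA against PIP cells, from -0.35 to 0.48 with serotonin and from -0.22 to 0.62 with TNF-α. The other STAT5A probe gave 1.27 in pMA against PIP cells, and STAT4 was not well above background on any array. The other inhibitors with a serotonin ratio to pMA, SOCS4, SOCS6, PIAS2, PIAS4 and PTPN1, were under 2-fold there, from -0.15 to 0.39 on their leading probes. SOCS4 and SOCS6 stood at 0.39 and 0.33.

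Of 25 known STAT3 targets 19 were on the array, and they did not move as a block. The serum amyloid A gene SAA3, an acute-phase protein gene that NF-κB also drives, read 0.11 in PIP cells, 3.88 in pMA, 9.57 with TNF-α and 5.01 with serotonin. It rose 13.6-fold from PIP cells to pMA, and against pMA 51.6-fold with TNF-α and 2.19-fold with serotonin, on 5 probes that all had the same direction. With TNF-α the 5 probes ran from 5.69 to 7.57 in log2 ratio. Serum amyloid A genes are near-identical copies, and the probes may read more than 1. ICAM1, an adhesion molecule, rose 3.40-fold with TNF-α and read 4.87 in pMA, 6.64 with TNF-α and 4.67 with serotonin. MYC, a growth regulator, fell 3.13-fold from PIP cells to pMA and rose 2.36-fold with serotonin, with all 3 probes alike. CEBPB, an adipogenic transcription factor, rose 3.28-fold from PIP cells to pMA. A2M, a protease inhibitor, fell 6.31-fold with serotonin, from 1.82 to -0.84. FGL2, a secreted fibrinogen relative, was at least 2.99-fold lower with serotonin than with TNF-α on its leading probe. Its 3 probes with a ratio ran from -1.58, that of the leading probe, to -0.72, which is under 2-fold. CEBPD, a partner of CEBPB, gave 0.90 with serotonin on the leading probe and between 0.40 and 1.31 on its 5 probes. TIMP1 gave 0.67 with TNF-α on the leading probe and up to 1.57 on its 3 probes. In serotonin against TNF-α it gave -0.99 on the leading probe and down to -1.86. For regulators of the IL6 transcript 9 names were listed, with AUF1 and HNRNPD for the same gene. RC3H2, an RNA-binding repressor of cytokine transcripts, was the only 1 of them found on the array, and it rose 2.06-fold from PIP cells to pMA.

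**Figure D4:**
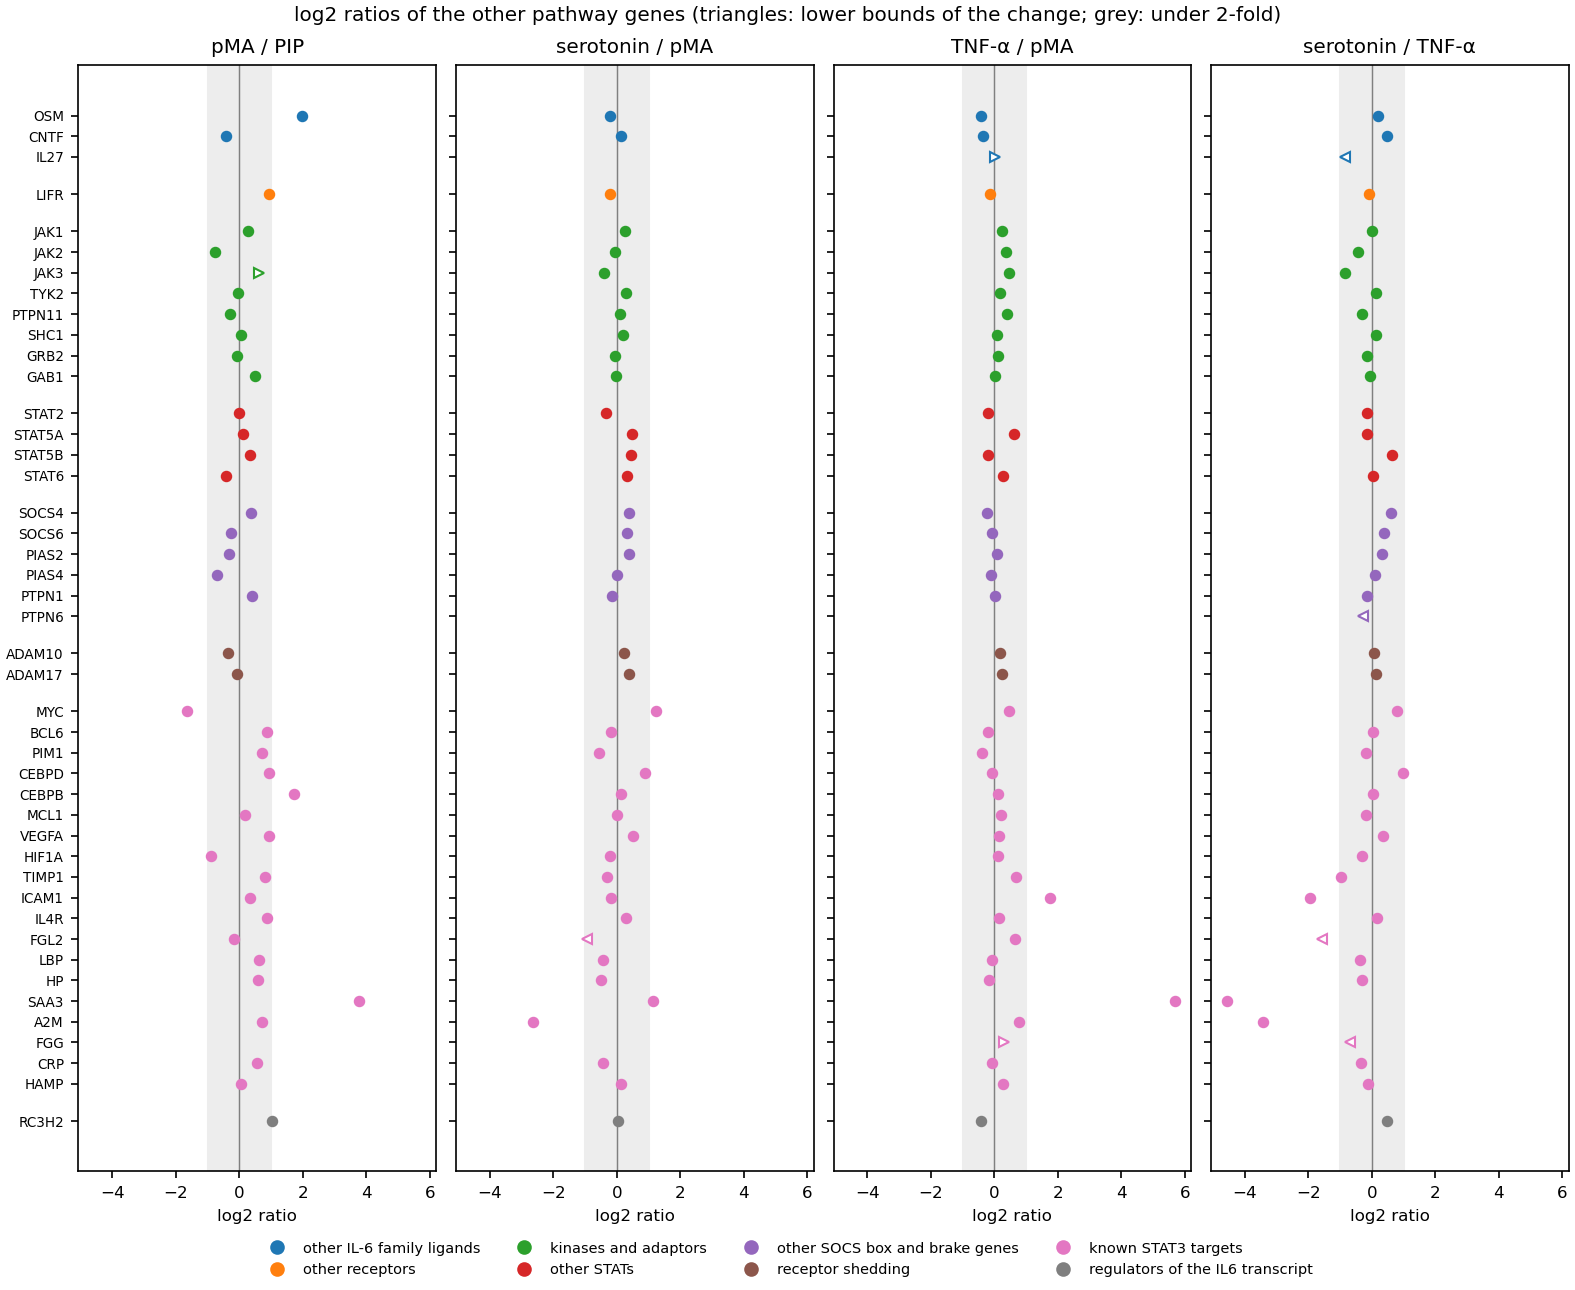
log2 ratio of the leading probe of each further pathway gene with a ratio, in 4 comparisons, coloured by role; open triangles are lower bounds of the change and grey is under 2-fold. SAA3 and ICAM1 stand to the right with TNF-α, MYC and SAA3 with serotonin, and A2M to the left with serotonin.

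IL6 and SOCS3 were used to look for likeness across the array. The search covered 4598 names that are current RefSeq gene symbols, without LOC names, and were well above background on all 4 arrays. Likeness was the distance between the 4 log2 levels after centring each gene on its mean, a description over 4 arrays. Nearest to IL6 were BTC (0.32), ACKR3 (0.32), VCAN (0.38), SPP1 (0.41) and EZR (0.53). Nearest to SOCS3 were MGST1 (0.28), TSTD1 (0.39), KLF15 (0.44), ARHGAP22 (0.47) and TSPAN33 (0.50). Those near IL6 had log2 ratios of 1.05 to 2.08 with TNF-α, and those near SOCS3 of 1.19 to 1.77 with serotonin. These ratios follow from the way the genes were chosen, on the same 4 arrays, and are no separate result.

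The identity of the cells bears on where IL6 and the inhibitors were read. Of 12 adipocyte markers on the array 9 or 10 were well above background on each array. Their levels before the log were summed, so that the brightest probes weigh most. The log2 of this sum was 2.69 in PIP cells, 4.31 in pMA, 4.74 with TNF-α and 5.49 with serotonin. The markers did not move alike with serotonin, where PLIN2 and LPL were higher than in unstimulated pMA by log2 ratios of 1.00 and 2.41, while FABP4 was 6.83-fold lower and DGAT2 stood at -0.27. CD36, CIDEC, PLIN2 and PPARG were higher in pMA than in PIP cells by log2 ratios of 5.17, 3.88, 3.14 and 1.07 on their leading probes. The size depended on the probe for CD36, from 1.19 to 5.17 on 4 probes, and for CIDEC, at 0.75 on its other probe. FABP4 was higher by at least 3.08, while DGAT2, LPL, LEP and LIPE stood at 0.79, 0.38, 0.31 and 0.12. ADIPOQ, PLIN1 and CEBPA did not pass the background limit in unstimulated pMA, and of these ADIPOQ passed it in PIP cells. Of 13 macrophage and monocyte marker names, with EMR1 and ADGRE1 for the same gene, 7 were on the array. Of these 5 or 6 were well above background on each array. The log2 of their sum was 5.84, 6.30, 6.17 and 5.30 in the order PIP, pMA, TNF-α and serotonin. This sum was almost wholly CD86, at 6.26 in pMA and 5.21 with serotonin. CD163 was not well above background on any array, CD14 differed by 0.66 with TNF-α, and TYROBP rose by 1.57 with TNF-α and 1.01 with serotonin. Other markers of this list went down: AIF1 had log2 ratios of -0.91 with TNF-α and -0.96 with serotonin, and MRC1 of -0.08 and -0.81. The part of other cell types in the IL6 and SOCS3 values was not tested, and in such bulk RNA fewer cells of a type and less RNA per cell cannot be told apart. The paper reports cell death that grew with the serotonin dose. Its part in the values of the serotonin array, taken at 12 h, was not tested. Of 9 muscle markers MYOD1, MYF5 and MYF6 were dim throughout, and the log2 of the sum of the 9 was 7.47 with serotonin against 9.36 in unstimulated pMA. This sum was carried by ACTA1, at 7.40 and 9.33 on these arrays. The log2 ratio of serotonin to pMA was also negative for DES (-1.02), CKM (-0.76) and MYH1 (-0.65). It was -0.01 for MYOG and 0.39 for PAX7. Well above background were 6 to 8 of 8 preadipocyte or fibroblast markers, 2 or 3 of 5 endothelial markers and 2 to 4 of 7 lymphocyte markers, depending on the array. The share of probes well above background was 56.5% in PIP cells, 56.6% in pMA, 66.0% with TNF-α and 61.0% with serotonin, and repeated spots of 1 probe had a standard deviation of 0.10 to 0.13 on the log2 scale.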

How the data were processed

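Total RNA of 4 conditions was labelled with Cy3 and hybridised to 4 arrays on 1 slide of a porcine 4-array design. The methods also name another scanner program, a 2-colour protocol and a mouse array, beside which they state the pooling of RNA. The deposited scanner files show a porcine array read in 1 colour by Agilent Feature Extraction 10.7.3.1. The values used were the deposited intensity per spot after the software's own background subtraction, its error, and its flags for spots well above background. The authors' table of the series holds a signal that equals this intensity divided by 1 constant per array, without log, centring or direction. Control spots were left out, as were spots marked as outliers (1 to 12 per array), and no spot was saturated.

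From these, log2 intensity minus log2 of the array's 75th percentile was computed (Python 3, pandas and numpy), and spots of 1 probe were averaged. If a probe passed the background limit on only 1 array of a comparison, the dim side was raised to the faintest probe passing that limit there, and the ratio was called a lower bound. Where both were dim, or the bright value did not exceed that limit, no ratio was formed. A gene was read by the probe with the highest mean. With 1 array per condition no test across genes was run, and the number of arrays limits the precision. Normexp and quantile alternatives used limma.

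Members of the axis are named whatever their values. Other pathway genes are named where the leading probe passed 2-fold, with the rest as counts and ranges, and LIFR, CEBPD, TIMP1, CNTF and the names within counts were added after their values were seen. The members and all lists were chosen with earlier results of these data known. Of the 43603 probes 7465 were matched to a current symbol of the RefSeq table for Sscrofa11.1 by accession without version or by gene number. This was used for the lists, so that SAA3 and ICAM1 are the genes the files call by older names. The search for likeness to IL6 and SOCS3 took only names that are symbols of that table. The files name no genome build, and no coordinates are given. One further gene of the lists is not reported here, and it enters none of their counts.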

Additional observations from a re-analysis of the deposited data

How the results depend on the processing

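The calls that the text leads with held under the 9 other ways of scaling, filtering and choosing probes: IL6 with TNF-α (log2 ratio 1.54 to 1.72), SOCS3 with serotonin (1.40 to 1.85), SOCS5 with serotonin (1.15 to 1.42), SOCS2 in pMA against PIP cells (-2.13 to -1.24), and IL6, SOCS3 and SOCS5 between serotonin and TNF-α stayed past 2-fold under each. Some of the 9 could not move these calls or could hardly do so. No filter on dim probes, only probes above background on all 4 arrays, and the probe brightest in pMA gave the same ratios. The authors' table holds the same intensity divided by a constant per array, and gave 1.62 for IL6 with TNF-α. The counts that follow include these settings. Over all members 277 ratios were recomputed, of which 251 moved by less than 1 times the scanner error of the ratio, 26 moved by more and 0 called ratios changed sign. In pMA against PIP cells the count of 1 called member became 2 with median scaling and 2 with the mean of measured probes, the added gene being IL6. Of the uncalled ratios 11 changed sign, in IL6R, IL6ST, STAT3 and SOCS5, all close to 0. In pMA against PIP cells median scaling turned IL6R from 0.15 to -0.20 and STAT3 from 0.27 to -0.08, when the median of all gene names moved from 0.12 to -0.22. That median moved to 0.44 with spike-in scaling and to 0.42 with no filter on dim probes. At a 1.5-fold cutoff 3 members were past it in pMA against PIP cells. At a 4-fold cutoff 0 members were past it in pMA against PIP cells, 0 with serotonin, 0 with TNF-α and 1, IL6, between the stimulations. The 5 further pathway genes called in pMA against PIP cells became 3 with normexp background correction, 13 with spike-in scaling, 18 at 1.5-fold and 1 at 4-fold. The 3 with serotonin became 5 with no filter on dim probes, 5 at 1.5-fold and 1 at 4-fold. The 2 with TNF-α became 6 at 1.5-fold and 1 at 4-fold. The 4 between serotonin and TNF-α became 7 with no filter on dim probes, 12 at 1.5-fold and 2 at 4-fold. The cause of these moves was not tested beyond what the settings themselves change. No paired analysis was possible because each condition has 1 array, and no array could be left out for the same reason. Signal over background limited LIF, IL6R and the fainter SOCS2 and SOCS3 probes.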
